A study of Mus musculus with 4 samples.

Results

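The mitochondrial ribosomal protein genes were the genes whose symbol is Mrpl or Mrps followed by a number and at most 1 letter, whose normalized reads averaged 4 or more over the 4 heart libraries. All 77 symbols of this form met the mean, so that 77 of the 13725 genes with such a mean were described, and each of them also averaged 16 or more. By what their proteins are known to be, 50 belong to the large subunit and 26 to the small subunit, and 1, Mrps36, carries the name but is known as a subunit of the oxoglutarate dehydrogenase complex. Mrps30 and Mrps18a were counted with the large subunit in spite of their symbols, because their proteins sit there.

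The study set treadmill exercise (E) against the presence of a tumor (T) in CDF1 mice. The heart was sequenced as 1 library for each of the 4 groups. The normal control was E(-)T(-), with neither exercise nor tumor cells, and the normal exercise group E(+)T(-) ran at high intensity on a treadmill. The cancer control E(-)T(+) and the cancer exercise group E(+)T(+) received CT26 cells, a mouse colorectal cancer line, through the tail vein. This model spreads cancer cells through the blood rather than growing them at 1 site. The mice were male, the groups held 10 mice each by the design, and the labels give postnatal day 28 as the age for all 4 libraries. By the methods that was about the age at purchase, before exercise and tumor cells, so the hearts were collected later and the label is not their age at collection. Whether a heart library holds 1 mouse or a pool was not given in the sources used here.

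Mitochondria keep their own ribosome, built from RNA encoded in the mitochondrial genome and from proteins encoded in the nucleus, made in the cytosol and imported. It translates the few mitochondrial messages, all of them for subunits of the respiratory chain, which the heart depends on for nearly all of its ATP. Many of its proteins have counterparts in bacteria and the others are found in mitochondria alone, and loss of single ones in patients, such as MRPL3 or MRPL44, is known to give cardiomyopathy.

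Values are normalized reads as the authors deposited them, taken out of the log2 scale. The kit reads 3′ ends, which makes the number of reads depend less on transcript length. Levels are compared between genes on this ground, which was not checked here. A log2 fold change is the difference of 2 deposited values, each a log2 of normalized reads plus 1. With 1 library per group there was no replicate, so no test of a condition was possible, and every difference is between 2 libraries. Brackets after a log2 fold change give the 95% Clopper-Pearson interval from recovered reads, which covers counting error only. Recovered totals ran from 6595449 reads in E(-)T(-) to 11545968 in E(+)T(+), and the members had between 33 and 3283 reads in a library. The globin share was 37.3% in E(+)T(+) and between 7.86% and 8.76% in the other libraries, so that scaling to the library total moved the median of all genes to -0.59 in E(+)T(+) against E(-)T(+) and to -0.73 in E(+)T(+) against E(+)T(-), on the log2 scale. Differences of the members are therefore also given relative to the median of all genes.

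Of the 77 members, 68 had a promoter window in RefSeq (GRCm38.p6), taken from 250 bases before to 50 bases after a transcript start, with 74 windows in all. The windows were searched on both strands for the letters of 5 motifs of factors known for mitochondrial gene control: GCGCATGCG for NRF-1, CCGGAAG for the ETS family that GABP belongs to, AAGATGGC for YY1, TCAAGGTCA for ERR and the E-box CACGTG. None of these letters contains another, but the NRF-1 letters overlap their own reverse complement. The ETS letters stood in a window of 36.8% of the matched members, against 18.7% of the 10347 tested genes with a window. The YY1 letters stood in 17.6% of members and 4.98% of tested genes, and the NRF-1 letters in 10.3% and 3.91%. The E-box was found in 7.35% of members and 11.5% of tested genes, and the ERR letters in 0 members and 0.348% of tested genes. No test was run on these shares, and 33 of the 74 windows held none of the 5.

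The promoters of 7 members are shown, so that those farthest down and farthest up between the cancer control and the normal control can be read side by side. The 4 that were lower by at least 2-fold come first and the 3 that were higher by at least 1.5-fold after them. Each runs from 120 bases before the start through the first 30 transcribed bases, 5′ to 3′ on the strand of the gene, in lower case with any of the 5 motifs in capitals.
Mrpl49: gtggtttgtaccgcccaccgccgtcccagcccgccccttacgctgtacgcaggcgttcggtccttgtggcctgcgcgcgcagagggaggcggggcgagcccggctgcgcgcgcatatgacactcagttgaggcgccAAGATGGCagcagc
Mrpl21: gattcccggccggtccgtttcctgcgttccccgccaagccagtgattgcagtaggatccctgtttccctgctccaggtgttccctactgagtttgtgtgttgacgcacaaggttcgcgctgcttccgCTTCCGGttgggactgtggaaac
Mrpl34: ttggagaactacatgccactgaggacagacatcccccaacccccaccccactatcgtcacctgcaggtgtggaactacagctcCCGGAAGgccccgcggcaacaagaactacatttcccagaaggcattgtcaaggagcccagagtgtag
Mrps2: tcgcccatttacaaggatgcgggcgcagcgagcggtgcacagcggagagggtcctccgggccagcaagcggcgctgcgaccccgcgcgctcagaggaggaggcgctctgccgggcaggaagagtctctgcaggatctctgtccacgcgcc
Mrps18c: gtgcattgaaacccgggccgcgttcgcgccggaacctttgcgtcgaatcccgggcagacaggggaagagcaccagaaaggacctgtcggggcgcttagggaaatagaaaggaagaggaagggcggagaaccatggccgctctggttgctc
Mrpl33: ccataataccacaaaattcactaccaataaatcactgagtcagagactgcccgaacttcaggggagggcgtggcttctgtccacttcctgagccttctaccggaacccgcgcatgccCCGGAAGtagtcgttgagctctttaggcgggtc
Mrps18b: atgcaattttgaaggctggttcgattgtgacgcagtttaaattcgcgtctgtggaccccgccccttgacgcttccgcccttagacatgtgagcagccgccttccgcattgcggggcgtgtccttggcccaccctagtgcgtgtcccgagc
In GRCm38.p6 these are chr19:6057726-6057875 on the minus strand for Mrpl49, chr19:3282922-3283071 on the plus strand for Mrpl21, chr8:71464806-71464955 on the plus strand for Mrpl34 and chr2:28467946-28468095 on the plus strand for Mrps2. The windows of the higher members are chr5:100798639-100798788 on the plus strand for Mrps18c, chr5:31613831-31613980 on the plus strand for Mrpl33 and chr17:35916411-35916560 on the minus strand for Mrps18b. The YY1 letters of Mrpl49 begin at base 17 of the transcript. The ETS letters begin at base 8 in Mrpl21, on the other strand, at position -37 in Mrpl34 and at position -3 in Mrpl33, so that they stand both in members that were lower and in one that was higher. The stretches of Mrps2, Mrps18c and Mrps18b shown hold none of the 5, although the full windows of both Mrps18 genes hold ETS letters. All 77 members have a position in this build, spread over 17 chromosomes, with at most 10 on one of them, chromosome 11, and none on the X chromosome.

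The genes for these proteins were read at levels far apart. In E(-)T(-) the highest was Mrpl42 with 2423 normalized reads and the lowest Mrpl21 with 61.8, around a median of 461. The 10 highest members held between 37.1% and 39.4% of the summed normalized reads in each library. Mrpl42, a large subunit protein found in mitochondria alone, was the highest in 3 libraries, while Mrpl33 led in E(-)T(+) with 2895 normalized reads. After Mrpl42 and Mrpl33 by mean came Mrpl53, Mrpl12 and Mrpl51, with 1944 normalized reads on average for Mrpl53. Mrpl53 shares exon bases on its own strand with Gm42688, annotated as protein-coding. At the other end stood Mrpl21, Mrpl15, Mrps11, Mrps27 and Mrps28. Mrpl15 had 73.4, 75.1, 60.8 and 107 normalized reads in E(-)T(-), E(+)T(-), E(-)T(+) and E(+)T(+), and Mrps11 had 96.3, 100.4, 81.1 and 97.4.

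**Figure D1:**
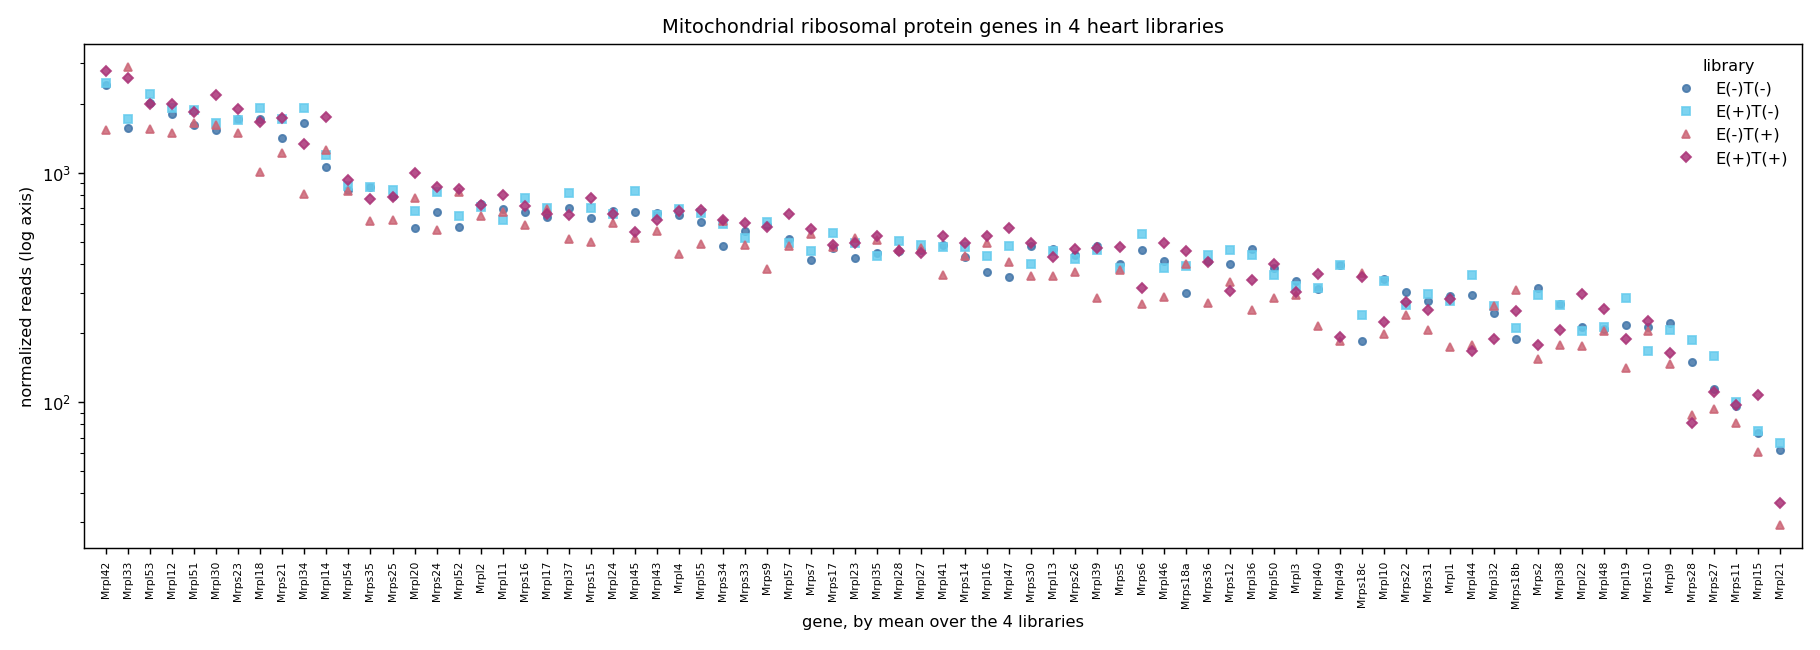
Normalized reads (log axis) of the 77 members, ordered by their mean over the 4 libraries, with 1 symbol per library. The order of levels is much the same in each library, from Mrpl42 and Mrpl33 down to Mrpl21, and the E(-)T(+) triangles are the lowest of the 4 for 51 members.

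Across the 4 libraries the members varied little. The highest library exceeded the lowest by less than 2-fold for 69 of the 77 and by less than 1.5-fold for 42. The median ratio was 1.44, against 1.86 over all genes tested. Those genes were not matched to the members by level. The lowest member averaged 48.3 normalized reads, while the minimum for all genes was 4, and counting error is larger at low levels. The part of level in this difference, and in the shares past a fold given below, was not tested. Mrpl51 varied little, at 1618, 1874, 1650 and 1849 normalized reads in E(-)T(-), E(+)T(-), E(-)T(+) and E(+)T(+). Mrpl3, which lies in the core of the large subunit, had 336, 319, 292 and 302 normalized reads. E(-)T(+) was the lowest of the 4 libraries for 51 members, or 66.2%, while it was the lowest for 29.4% of all genes tested. It was the highest for 4 members, or 5.19%, against 28.9% of all genes tested, and E(+)T(+) was the highest for 33, or 42.9%, against 23.3%. Summed over the 77 members, the cancer control had the fewest normalized reads, 41648, and the cancer exercise group the most, 51920, while the normal control had 47096 and the normal exercise group 50444. As a share of each library's reads outside the globin genes, scaled to sequencing depth (RPM), the members held 6827 RPM in the normal control, 7182 in normal exercise, 5376 in the cancer control and 6555 in cancer exercise. On both scales the cancer control was the lowest, but of all reads, globin included, the lowest share was in E(+)T(+), with 4112 RPM against 4954 RPM in E(-)T(+).

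**Figure D2:**
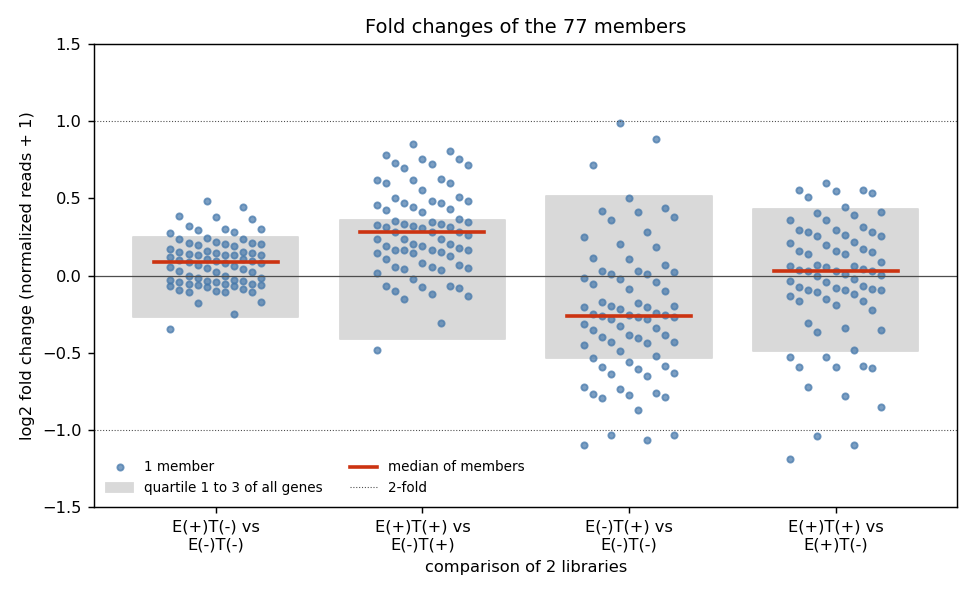
Log2 fold changes of the 77 members (points) in 4 comparisons of 2 libraries, with the median of the members (red line), the range from the first to the third quartile of all genes tested (grey) and 2-fold (dotted). The members lie mostly above 0 in E(+)T(+) against E(-)T(+), with a median of 0.28, and mostly below 0 in E(-)T(+) against E(-)T(-), with a median of -0.26.

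In the sedentary mice, the tumor comparison E(-)T(+) against E(-)T(-) asked what the tumor did to the heart without exercise. There 56 of the 77 members were lower and 21 higher, at a median of -0.26 on the log2 scale, against -0.02 over all genes tested, and 51.0% of all genes were lower. Relative to all genes the median of the members was -0.24, and this difference was also -0.24 with scaling to the library total. With that scaling 64 members were lower and 13 higher, or 16.9% of them higher against 41.2% of all genes. By at least 2-fold, 4 members were lower and 0 higher, while 13.1% of all genes with at least 4 normalized reads in either library were lower by as much and 14.6% higher. By at least 1.5-fold, 18 members were lower and 3 higher, or 23.4% and 3.90% of them, against backgrounds of 23.7% lower and 24.0% higher. The share of members lower by 1.5-fold was thus near that of all genes, and the share higher was below it. The large subunit (median -0.27) and the small subunit (median -0.25) lay close to each other on the log2 scale.

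The 4 members past 2-fold were Mrpl49, Mrpl21, Mrpl34 and Mrps2. Mrpl34, a large subunit protein with a bacterial counterpart, had 1657 and 1912 normalized reads in the tumor-free libraries E(-)T(-) and E(+)T(-), and 808 and 1329 in the tumor libraries E(-)T(+) and E(+)T(+). Both tumor libraries were below both tumor-free ones, and the log2 fold change in the sedentary pair was -1.03 [-1.16, -0.92]. Mrpl49, found in mitochondria alone, had 397, 396, 185 and 193 normalized reads in the same order, with no overlap between tumor and tumor-free libraries, and a log2 fold change of -1.09 [-1.35, -0.85]. Mrps2, a small subunit protein with a bacterial counterpart, had 315, 293, 153 and 177 normalized reads and a log2 fold change of -1.03 [-1.32, -0.76]. Mrpl21, the lowest member, had 61.8, 66.1, 29.0 and 36.2, from 33 reads in each tumor library, and a wide interval, -1.07 [-1.76, -0.44]. All 4 were thus lower in both tumor libraries than in both others, which held for 26 of the 77 members (33.8%) and for 28.7% of all genes tested, while 12 members (15.6%) and 27.4% of all genes were higher in both. Mrpl36, Mrpl10 and Mrps6 came next by size. Mrpl36, a short protein of the large subunit, had 464 normalized reads in E(-)T(-) and 253 in E(-)T(+). Annotated exons of Mrpl49 overlap those of Syvn1, those of Mrpl21 overlap Ighmbp2, and those of Mrpl36 overlap Ndufs6, on the opposite strand in each case. Whether the counting used strand was not stated, so reads of these partners cannot be told apart here. In all, 17 members share exon bases with another protein-coding gene, and for the 60 others the median was -0.25 on the log2 scale, with 42 lower and 18 higher.

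**Figure D3:**
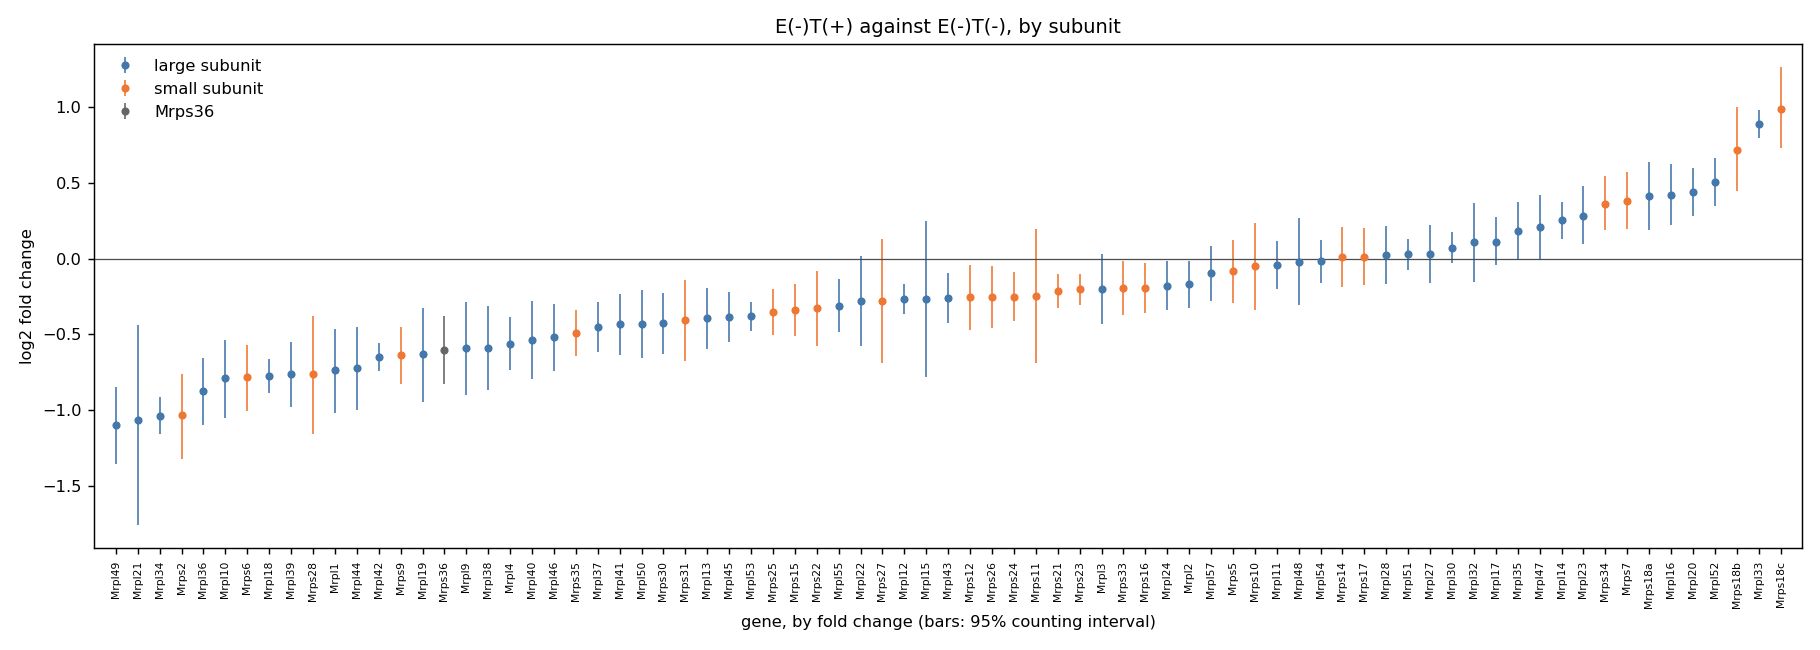
Log2 fold change of each of the 77 members in E(-)T(+) against E(-)T(-), ordered by size, with 95% counting intervals (bars) and the subunit of the protein (color). The 2 subunits are mixed along the order, from Mrpl49 at -1.09 to Mrps18c at 0.99.

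Against the direction of most members, 3 were higher in the cancer control by at least 1.5-fold. Mrpl33, a small large-subunit protein with a bacterial counterpart, had 1566, 1719, 2895 and 2602 normalized reads in E(-)T(-), E(+)T(-), E(-)T(+) and E(+)T(+), with a log2 fold change in the sedentary pair of 0.89 [0.80, 0.98]. Mrps18c had 185, 239, 367 and 351 normalized reads, with a log2 fold change of 0.99 [0.73, 1.26], and Mrps18b had 188.1, 209.8, 309.6 and 250.4, with a log2 fold change of 0.72 and the lower bound of its interval at 0.45. The tumor libraries stood above the tumor-free libraries for each of these 3. The Mrps18 genes are 3 paralogs of 1 bacterial protein, of which the products of Mrps18b and Mrps18c sit in the small subunit and that of Mrps18a in the large one. Mrps18a was also higher, with 300.5 normalized reads in E(-)T(-) and 399.6 in E(-)T(+), a log2 fold change of 0.41 [0.19, 0.64]. Next by size came Mrpl52, at 580.2 and 822 normalized reads in E(-)T(-) and E(-)T(+), and Mrpl20, at 574 and 778. Mrpl20 had its highest value, 994 normalized reads, in E(+)T(+).

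In tumor-bearing mice, the comparison of E(+)T(+) with E(-)T(+) asked what exercise did. There 66 of the 77 members were higher and 11 lower, at a median of 0.28 on the log2 scale against -0.01 over all genes tested, of which 49.0% were higher. With scaling to the library total, however, 14 members were higher and 63 lower, with a median of -0.30. The 14 are 18.2% of the members, near the 16.5% of all genes that were higher with that scaling. Relative to the median of all genes the members' median was 0.30 as deposited and 0.29 with scaling to the library total, and 66 members lay above the median of all genes under both. By at least 2-fold, 0 members differed in either direction, against 9.39% of all genes higher and 10.0% lower. By at least 1.5-fold, 14 members were higher and 0 lower, against 17.5% and 19.5% of all genes. The 14 are 18.2% of the members, near the background, while the 0 lower is below it. This comparison shares the E(-)T(+) library with the sedentary tumor comparison, so a value that is low in that library alone gives a lower value in one and a higher value in the other.

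Mrpl42 had the largest difference with exercise, from 1543 normalized reads in E(-)T(+) to 2783 in E(+)T(+), a log2 fold change of 0.85 [0.76, 0.94], while the tumor-free libraries held 2423 and 2465. As deposited, its low value was thus in E(-)T(+) alone. With scaling to the library total Mrpl42 was also lower in E(+)T(+) than in E(+)T(-), at -0.54 on the log2 scale. Mrpl46 and Mrpl40 are both proteins of the central protuberance of the large subunit. Like Mrpl42, they were lowest in E(-)T(+) and highest in E(+)T(+) as deposited. Mrpl46 had 411, 382 and 492 normalized reads in E(-)T(-), E(+)T(-) and E(+)T(+) and 287 in E(-)T(+), and Mrpl40 had 311, 316, 363 and 214. Their log2 fold changes with exercise were 0.78 [0.57, 0.99] for Mrpl46 and 0.76 [0.52, 1.01] for Mrpl40. Mrpl22, at the exit of the polypeptide tunnel, went from 175 to 296 normalized reads, and Mrpl15, from 69 and 98 reads, had a log2 fold change of 0.81 [0.36, 1.28]. At the other end, Mrpl32 was lower, at 263 normalized reads in E(-)T(+) and 188 in E(+)T(+), with a log2 fold change of -0.48 [-0.76, -0.21]. Mrps18b and Mrpl33, 2 of the members that were higher with the tumor, were lower with exercise, at -0.30 [-0.55, -0.06] and -0.15 [-0.23, -0.08]. Mrps12, a protein of the decoding site, and Mrps28 had log2 fold changes of -0.13 [-0.36, 0.10] and -0.12 [-0.58, 0.32], with intervals that include 0.

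In tumor-free mice, E(+)T(-) against E(-)T(-) gave smaller differences. Here 49 members were higher and 28 lower, with a median log2 fold change of 0.09 against 0.00 for all genes tested, and all values lay between -0.35 and 0.49. By at least 2-fold or 1.5-fold, 0 members differed, while 5.88% of all genes were higher and 6.40% lower by 2-fold, and 11.8% higher and 13.0% lower by 1.5-fold. The largest difference was that of Mrps27, an RNA-binding protein of the small subunit, with 113 normalized reads in E(-)T(-) and 159 in E(+)T(-), a log2 fold change of 0.49 [0.13, 0.86]. Mrpl47 (0.44), Mrps18a (0.38), Mrpl19 (0.38) and Mrps18c (0.37) followed on the log2 scale. Annotated exons of Mrpl47 overlap those of Actl6a and Ndufb5, and those of Mrpl19 overlap Gcfc2, on the opposite strand in each case. The lowest were Mrps10 at -0.35 [-0.65, -0.05] and Mrps30 at -0.25 [-0.45, -0.05], and Mrps22 (-0.18), Mrpl11 (-0.17) and Mrpl9 (-0.11) followed. As deposited, the log2 fold change with exercise was larger with the tumor than without it for 57 of the 77 members. The same held for 6918 of the 13725 genes tested. The median difference was 0.22 for the members against 0.01 over all genes tested. With scaling to the library total, the members' median with exercise was -0.30 with the tumor and 0.07 without it. Over all genes these medians were -0.59 and -0.01. These 2 comparisons share no library, but each is 1 pair, and the difference was not tested.

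In exercised mice, the tumor comparison E(+)T(+) against E(+)T(-) split the members, with 41 higher, 35 lower and 1, Mrpl24, at exactly 0, and a median log2 fold change of 0.03 against -0.02 for all genes tested. With scaling to the library total, however, 0 were higher and 77 lower, and 24 and 53 with scaling to the total without genes over 1% of a library. Of all genes, 15.7% and 38.1% were higher with these 2 scalings. Relative to all genes the median of the members was 0.05 as deposited, 0.03 with scaling to the library total and 0.04 without genes over 1% of a library. By at least 2-fold, 3 members were lower and 0 higher, against 11.1% of all genes lower and 12.0% higher. By at least 1.5-fold, 9 were lower and 1, Mrpl33, higher, or 11.7% and 1.30% of the members, against 21.6% of all genes lower and 20.8% higher. Mrps28, a small subunit protein, had 150.1, 186, 88.1 and 81.0 normalized reads in E(-)T(-), E(+)T(-), E(-)T(+) and E(+)T(+), with a log2 fold change in the exercised pair of -1.19 [-1.60, -0.81]. Mrpl44, the protein named above for cardiomyopathy, had 294, 357, 178 and 166 normalized reads, with a log2 fold change of -1.10 [-1.38, -0.83]. Mrpl49 was the third, at -1.04 [-1.30, -0.79]. Each of these 3 was lower in both tumor libraries than in both tumor-free libraries, like Mrpl21 and Mrps6, whose log2 fold changes here were -0.85 [-1.51, -0.26] and -0.78 [-0.99, -0.58]. Mrps6 had 461, 542, 267 and 315 normalized reads, and it shares exon bases on its own strand with Slc5a3, so that the counting could have divided or merged their reads. On the higher side, after Mrpl33 at 0.60 [0.51, 0.69], Mrps18c (0.55), Mrpl14 (0.55), Mrpl20 (0.55) and Mrpl22 (0.53) came within a narrow range on the log2 scale as deposited, and all 5 were below 0 with scaling to the library total. Mrpl14 had 1059, 1192, 1261 and 1749 normalized reads in the 4 libraries in the order above, highest in E(+)T(+).

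By position in the ribosome, the stalk, where translation factors dock, holds Mrpl10, Mrpl11 and Mrpl12, and its members did not move alike. Mrpl10 had 344, 337, 198 and 223 normalized reads in E(-)T(-), E(+)T(-), E(-)T(+) and E(+)T(+), lower in both tumor libraries. As deposited, Mrpl12, the fourth highest member, had 1806, 1912, 1498 and 1992, lower in E(-)T(+) alone, while Mrpl11 had 697, 619, 676 and 796 and was lowest in E(+)T(-). Of the 7 members of the central protuberance, 5 were lower in E(-)T(+) than in E(-)T(-), with a median log2 fold change of -0.52. As deposited, 6 were higher in E(+)T(+) than in E(-)T(+). The 6 members around the exit of the polypeptide tunnel were divided, with 3 lower and 3 higher in the sedentary tumor comparison. Of the 28 members found in mitochondria alone, 25 were lower in the sedentary tumor comparison, with a median log2 fold change of -0.38, and 27 were higher with exercise in tumor-bearing mice, with a median of 0.32. Of 44 with a bacterial counterpart, the Mrps18 genes left out, 29 were lower and 36 higher in these 2 comparisons, with medians of -0.21 and 0.25. These counts are as deposited, where 51.0% of all genes were lower in the first comparison and 49.0% higher in the second. With scaling to the library total, 14 of all 77 members were higher in the second. The classes and positions were not rescaled. The 3 Mrps18 genes were all higher in the sedentary tumor comparison, at 0.41, 0.72 and 0.99 for Mrps18a, Mrps18b and Mrps18c. Only Mrps18a of them was higher with exercise in tumor-bearing mice as deposited. Mrpl55 and Mrps36 were assigned to neither class. Mrps36, which is no ribosomal protein by its known function, had 411, 437, 271 and 410 normalized reads, again lowest in E(-)T(+).

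The mitochondrial ribosome also holds proteins with other symbols, of which 6 were read, Dap3, Chchd1, Aurkaip1, Ptcd3, Gadd45gip1 and Ict1. In the sedentary tumor comparison 5 of these 6 were higher, unlike most members, with log2 fold changes of 0.22 to 0.31. Dap3, which binds GTP in the small subunit and is also named for cell death, had 478, 430, 566 and 641 normalized reads in E(-)T(-), E(+)T(-), E(-)T(+) and E(+)T(+). As deposited, Chchd1 (1611, 1902, 1895 and 2342 normalized reads), Aurkaip1 (853, 920.0, 1055 and 1180) and Gadd45gip1 (472, 449, 551 and 585) were each highest in E(+)T(+). So was Ict1, a peptide release factor built into the large subunit, at 468, 527, 572 and 613. These genes were not rescaled to the library total, which lowered the median of all genes in both comparisons of E(+)T(+). Ptcd3, a small subunit protein that binds RNA, went the other way, with 382, 375, 144 and 351 normalized reads. Its log2 fold changes were -1.40 [-1.69, -1.13] in the sedentary tumor comparison and 1.28 [1.01, 1.57] with exercise in tumor-bearing mice, both past any member in their direction.

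Genes that serve this ribosome were lower by more than its proteins were in the sedentary tumor comparison. Of 15 factors of mitochondrial translation, 13 were lower and 2 higher, 5 of them lower by at least 2-fold, with a median log2 fold change of -0.90. Over all genes, 13.1% were lower by at least 2-fold in this comparison. Taco1, a translational activator of cytochrome oxidase, had 40.0, 46.3, 7.74 and 26.3 normalized reads in E(-)T(-), E(+)T(-), E(-)T(+) and E(+)T(+), with a log2 fold change of -2.23 [-3.58, -1.25] from 35 and 9 reads. Tsfm, the exchange factor of the elongation factor Tufm, had 97.2, 74.2, 28.9 and 53.6 normalized reads, a log2 fold change of -1.72 [-2.37, -1.15], and the release factor Mtrf1l was at -1.35 [-1.86, -0.88]. With exercise in tumor-bearing mice 14 of these 15 were higher as deposited, with a median of 0.34, but between the exercised libraries 13 were again lower with the tumor, with a median of -0.46. The list was not rescaled to the library total, which moved the median of all genes to -0.59 and -0.73 in these 2 comparisons. Of 20 genes that charge mitochondrial tRNA, 17 were lower in the sedentary tumor comparison, 5 by at least 2-fold against 13.1% of all genes, with a median of -0.68. As deposited, 15 of the 20 were higher with exercise in tumor-bearing mice. Hars2, the histidine enzyme, had 139, 155, 51.0 and 74.4 normalized reads, and Vars2, the valine enzyme, 34.4, 34.4, 13.1 and 42.6.

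Of 24 genes for assembly of the ribosome or modification of its RNA, 18 were lower in E(-)T(+) than in E(-)T(-), 5 by at least 2-fold, and 6 were higher, 2 by at least 2-fold, with a median log2 fold change of -0.40. Of all genes, 13.1% were lower and 14.6% higher by at least 2-fold. Mettl17, an assembly factor of the small subunit, had 124, 124, 14.8 and 39.5 normalized reads in E(-)T(-), E(+)T(-), E(-)T(+) and E(+)T(+), a log2 fold change of -2.98 [-3.88, -2.30]. Rpusd4, a pseudouridine synthase, had 98.3, 91.5, 28.1 and 20.9, low in both tumor libraries. Mpv17l2, known for assembly of the large subunit, went the other way, with 140.0, 150.1, 292 and 278. Among 9 genes of mitochondrial DNA transcription and replication, 7 were lower in the sedentary tumor comparison, with a median of -0.73. Tfam, which packs mitochondrial DNA and starts its transcription, had 299, 378, 180 and 270.2 normalized reads, and the polymerase Polrmt 98.6, 112, 53.6 and 133. Among 9 regulators of mitochondrial biogenesis, Ppargc1a, the coactivator PGC-1α, had 932, 858, 488 and 1178 normalized reads. As deposited it was lowest in E(-)T(+) and highest in E(+)T(+), like Mrpl42. Ppargc1b had 441, 380, 183 and 318. Esrra, a receptor that PGC-1α works with, had 518, 590, 524 and 617, and 5 of the 9 regulators were lower and 4 higher in the sedentary tumor comparison.

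**Figure D4:**
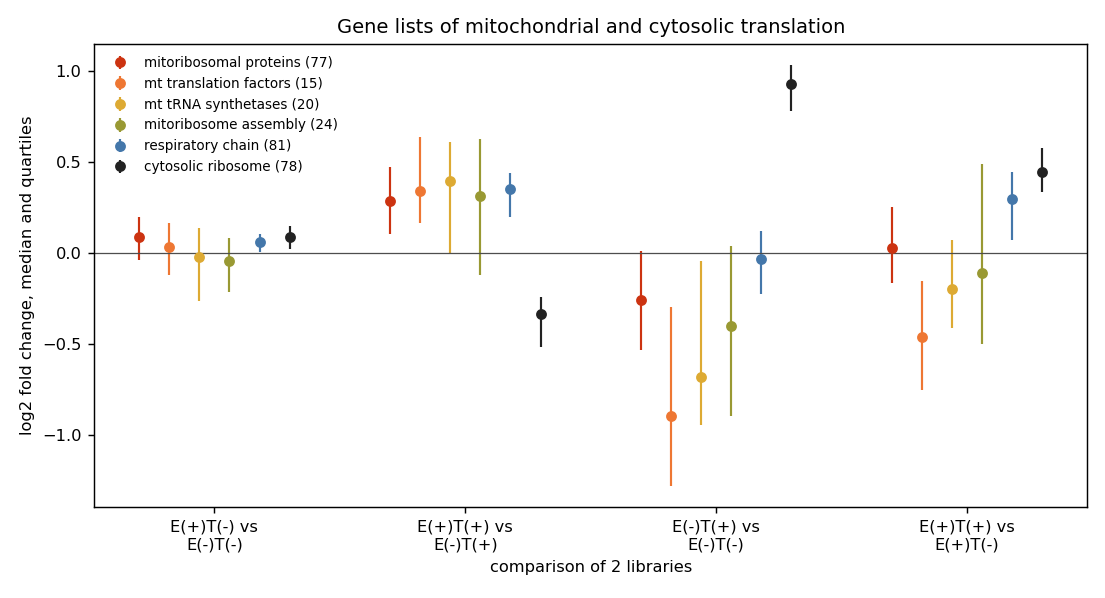
Median log2 fold change (points) and quartiles (bars) of the mitochondrial ribosomal protein genes and 5 other gene lists in the 4 comparisons, with the number of genes in brackets. In E(-)T(+) against E(-)T(-) the translation factors lie lowest at -0.90, the members at -0.26, the respiratory chain near 0 and the cytosolic ribosome at 0.93.

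Set beside the families most like them, the members differed from both in the sedentary tumor comparison. All 78 cytosolic ribosomal protein genes were higher there, at a median of 0.93 on the log2 scale, against -0.26 for the mitochondrial ones, and with exercise in tumor-bearing mice 75 of the 78 were lower, with a median of -0.33. The 81 nuclear genes of the respiratory chain, whose partners the mitochondrial ribosome makes, had a median of -0.03 in the sedentary tumor comparison, with 46 lower. With exercise in tumor-bearing mice their median was 0.35 as deposited, near the 0.28 of the members, and 74 were higher. Between the exercised libraries the respiratory chain was at 0.30, the members at 0.03 and the cytosolic ribosome at 0.44. In tumor-free mice all 3 families lay between 0.06 and 0.09. These are descriptions of lists in single libraries and were not tested.

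These libraries also differed in markers of the cells they held, and fewer cells of a type and less RNA per cell cannot be told apart in bulk tissue. All 10 cardiomyocyte markers were read in each library, with summed normalized reads between 479662 and 552071. The sum was 525760 in E(-)T(+) and 479662 in E(-)T(-), but without Tnnt2, which went from 91977 to 145836 normalized reads, it was 379924 and 387685, and 4 of the 10 markers were lower in E(-)T(+) and 6 higher. The 6 fibroblast markers, all read in each library, summed to 54156 normalized reads in E(-)T(+) and to 24795 to 31537 in the others. The sum was thus highest where most members were lowest. Most of it was Dcn, with 20423, 22489, 40453 and 29409 in E(-)T(-), E(+)T(-), E(-)T(+) and E(+)T(+). Each other fibroblast marker was lowest in E(+)T(+), such as Col1a1 with 599, 1231, 2564 and 301. Postn was highest in E(+)T(-), at 330. The 6 macrophage markers, all read, summed to 5277 in E(-)T(+) and to 2552 to 3242 elsewhere. They did not move alike between E(-)T(-) and E(-)T(+). Adgre1 went from 57.3 to 44.0 and Csf1r from 1003 to 928, while the rest were higher, such as C1qa from 713 to 1966. The 6 neutrophil markers summed to 123 and 81.4 in E(-)T(-) and E(+)T(-), with Camp and Ltf at 0 in one each, and to 3086 and 5927 in E(-)T(+) and E(+)T(+). The 4 atrial markers, all read, had their lowest sum, 8867, in E(-)T(+) and their highest, 28876, in E(+)T(+). White adipocyte markers, 6 in all, summed to 2204 and 2500 in E(-)T(-) and E(+)T(+) and to 524 and 425 in E(+)T(-) and E(-)T(+), where Lep was at 0 in 3 libraries and Plin1 in E(-)T(+). Of the brown adipocyte markers, Ucp1 was read in E(+)T(+) only, where the 4 summed to 1832 against 418 to 579 elsewhere. The 5 endothelial markers, all read, summed to between 4154, in E(-)T(+), and 5929, in E(-)T(-). Between these libraries Kdr went from 2631 to 709, and Cdh5 and Tie1 were also lower. Pecam1 went from 1678 to 2455, and Vwf was also higher. Erythroid markers, 10 of 11 found, summed to 4722600 in E(+)T(+) and to 645720 to 663832 in the others. The part of any of these cells in the differences of the members was not tested.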

How the data were processed

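The heart of CDF1 mice was measured by QuantSeq 3′ mRNA-seq in 4 libraries, 1 per group, grouped by their titles. According to the study's methods, the authors aligned reads with Bowtie2, counted them with bedtools and applied quantile normalization in edgeR; the submitters' processing notes name mm10. What the authors deposited is, for each gene and library, the log2 of the normalized read count plus 1. Whole reads were recovered from them by fitting library sizes and 1 dispersion (0.149). Every value was given back within 0.000517, and the recovery was tested on simulated data. Totals were 6595449, 8477127, 9532821 and 11545968 reads for E(-)T(-), E(+)T(-), E(-)T(+) and E(+)T(+). PCR copies are not independent molecules.

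Genes averaging 4 or more normalized reads were tested, and of 35 duplicated symbols the highest row was kept. Fold thresholds of 2 and 1.5 are descriptive, and their backgrounds take genes with at least 4 in either library. These backgrounds were not matched to the level of the members. Members, lists and the rule for named genes were chosen with earlier results of these data known: the 5 largest rises and falls in each comparison, the 5 highest and lowest members, members past 2-fold, named roles, and up to 3 genes of each other list. Lists and roles came from general knowledge. Mrps36, Mrps23, Mrps33, Mrpl24, Tfam and Esrra fall outside the rule and were added after their values were seen. Exon overlaps come from GENCODE vM21. Alternatives covered scaling, pseudocount, filters, depth and shared exons. The tools were matplotlib 3.10.9, pandas 2.3.3, scipy 1.17.1 and numpy 2.4.6 under Python 3.11.15.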

Additional observations from a re-analysis of the deposited data

Results flagged for a closer look

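The log2 fold changes of 7 members stood on opposite sides of 0 in 2 comparisons of the same kind, with counting intervals that exclude 0 on each side. With 1 library per group these differences were not tested, and no replicate shows their spread. The exercise effect, with the tumor minus without it, was 0.72 on the log2 scale for Mrps30, 0.41 for Mrpl11 and -0.29 for Mrpl33. Mrps30 and Mrpl11 were higher with exercise in tumor-bearing mice and lower in tumor-free mice as deposited, but lower in both with scaling to the library total, and Mrpl33 was higher in tumor-free and lower in tumor-bearing mice under both. The tumor effect, with exercise minus without it, was 0.83 for Mrpl42, 0.72 for Mrps30, 0.88 for Mrpl46, 0.36 for Mrps23 and 0.41 for Mrps33. Each of these 5 was lower with the tumor in sedentary mice and higher in exercised mice as deposited, but with scaling to the library total each was lower in exercised mice too, by a log2 fold change of -0.54 for Mrpl42, -0.43 for Mrps30, -0.36 for Mrpl46, -0.56 for Mrps23 and -0.51 for Mrps33. Mrps30 had 478 and 401.5 normalized reads without the tumor, sedentary and exercised, and 355 and 492 with it. Its annotated exons overlap those of B430218F22Rik on the opposite strand, and reads of this partner cannot be told apart here. For Mrps30 the 2 values are the same difference of 4 libraries, taken in the other order.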

How the results depend on the processing

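With 1 library per group, leaving out a library was not possible, and no paired analysis was possible because the groups share no replicates. The largest dependence was on scaling. With reads scaled to the library total, the members' median was -0.30 on the log2 scale in E(+)T(+) against E(-)T(+) and -0.69 in E(+)T(+) against E(+)T(-), where 48 members were lower by at least 1.5-fold and 17 by at least 2-fold, and 1 was lower by at least 2-fold in E(+)T(+) against E(-)T(+). The median of all genes was itself lower by more than 1.5-fold in both, at -0.59 and -0.73. The share of all genes past these folds was not counted under the alternative scalings. In E(+)T(+) against E(+)T(-) the log2 fold change became -0.17 for Mrpl14, -0.17 for Mrpl20, -0.18 for Mrpl22, -0.12 for Mrpl33 and -0.16 for Mrps18c. The median of all genes moved by nearly as much, since globin genes hold 37.3% of the reads of E(+)T(+). Without genes over 1% of a library, 9 members were higher by at least 1.5-fold in E(+)T(+) against E(-)T(+), and the median in E(+)T(+) against E(+)T(-) was -0.15. Without the members that share exon bases with a protein-coding gene, an alternative chosen after seeing the data, 6 members passed 1.5-fold in E(+)T(+) against E(+)T(-) and 2 passed 2-fold in E(-)T(+) against E(-)T(-), because fewer members were counted. A pseudocount of 4, a minimum mean of 16, no filter and reads drawn down to the smallest library left all 8 counts of members within 1.5 times and the 4 medians on their side of 0. With reads drawn down, the median in E(+)T(+) against E(+)T(-) was 0.04 instead of 0.03. The median of all genes was -0.02 there, so this setting did not carry the shift seen with scaling to the library total. Mrpl21 and Mrpl15, with 33 to 98 reads, have the widest counting intervals in each comparison.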
